A study of Mus musculus with 12 samples.

Results

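The immediate early AP-1 and Egr genes described here are Fos, Fosb, Fosl1, Fosl2, Jun, Junb, Jund, Egr1, Egr2 and Atf3. They were taken by symbol from the gene-level expression table of a mouse skin RNA sequencing series, and all 10 were among its 18858 genes and among the 15791 genes with enough counts to be tested. The skin came from BALB/C mice, an albino laboratory strain, 8 weeks old, in 4 groups named for their treatment: TL+L, TSeL, TSeL+L and PBS, the buffered saline control. What TL, TSeL and L stand for is not explained in the labels, nor are the dose, the site of the skin or the time of sampling, and no group is given any allele beyond the strain. Libraries were made from polyadenylated RNA of whole frozen skin, so a smaller number of cells of a type and less RNA per cell cannot be told apart. Each group has 3 table columns of 16630581 to 17318157 estimated counts. The 3 TL+L columns and the 3 PBS columns differ among themselves far beyond counting noise. The 3 columns headed TS, taken here for TSeL, share 1 library code and differ by a suffix, as do the 3 headed TSL, taken for TSeL+L, and these hardly differ: the mean chi-square per gene between 2 columns was 1.19 to 1.41 in TSeL and 1.38 to 1.49 in TSeL+L, against 60.9 to 184 in TL+L and 25.1 to 59.0 in PBS. The columns of TSeL and those of TSeL+L were therefore averaged and counted as 1 sample, which leaves 3 TL+L samples, 1 TSeL sample, 1 TSeL+L sample and 3 PBS samples, and a lone sample was assumed to vary like the TL+L and PBS samples. The labels do not say that the 3 samples of a group came from separate mice, and a p-value here speaks only of the spread among these samples.

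AP-1 is a dimer of basic leucine zipper proteins, usually a Fos family member paired with a Jun family member, or 2 Jun proteins, that binds DNA at TGACTCA and related sites. Egr proteins are zinc finger factors that bind GC-rich sites. In resting cells most of these genes are transcribed little, and growth factors, cytokines, wounding and the handling of a tissue switch them on within minutes through MAP kinases, serum response factor and CREB, after which the transcripts decay quickly. In skin, AP-1 factors take part in keratinocyte proliferation and differentiation, in wound repair and in inflammation.

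Against PBS skin, TL+L skin had less Fosl1 and Fosl2 mRNA, while the classic rapid-response genes of the group, Fos, Fosb, Jun, Egr1 and Atf3, varied more between samples of 1 group than between the groups. Fosl1 was 5.78-fold lower and Fosl2 1.85-fold lower in TL+L than in PBS. TL+L replicate 3 was the highest of the 3 TL+L samples for every one of the 10 genes. TL+L replicate 3 held the highest value of its group for 23.0% of all genes tested.

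**Figure D1:**
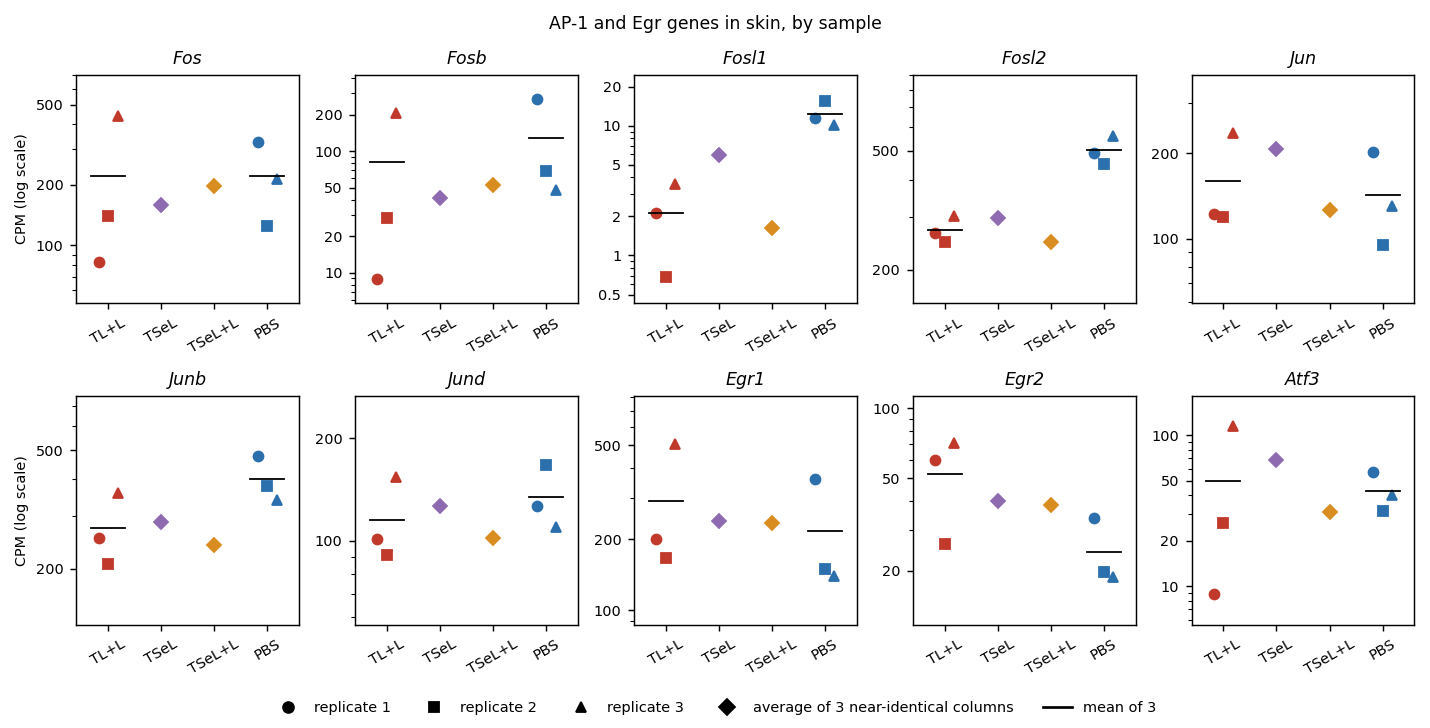
Level of the 10 genes in CPM (log axis) in each sample, with TL+L, TSeL and TSeL+L left of PBS, symbols for replicates, and a line at the mean of the 3 TL+L or 3 PBS samples. The red triangles, TL+L replicate 3, lie at the top of their group in all 10 panels, and only Fosl1 and Fosl2 separate TL+L from PBS.

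Among the Fos family, the partners that give AP-1 its strongest activation domains, Fos itself is the prototype of the rapid response. Fos had 82.4, 140.1 and 440.2 CPM in TL+L replicates 1 to 3, 158.5 CPM in TSeL, 198.1 CPM in TSeL+L, and 324.3, 124.1 and 212.4 CPM in PBS replicates 1 to 3. CPM are counts scaled to library size by TMM. The lowest and the highest of the 8 values are both TL+L samples, and the 4 groups overlap. The means were 220.9 ± 192 CPM in TL+L, against 220.3 ± 100 CPM in PBS (SD, n = 3 each), a log2 fold change of 0.00 with a standard error of 0.65 (edgeR adjusted p = 0.997). That error is wide enough to leave room for a sizeable change in either direction.

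Fosb, which is induced with Fos and also gives rise to a truncated protein that lasts much longer, had 8.95, 28.5 and 205.7 CPM in TL+L, 41.2 CPM in TSeL, 53.2 CPM in TSeL+L, and 267.7, 69.1 and 47.6 CPM in PBS. In TL+L and PBS alike, 1 sample stood far above the other 2, and the highest value was 23.0 times the lowest in TL+L and 5.62 times in PBS. The log2 fold change of TL+L against PBS was -0.66 with a standard error of 1.16 (edgeR adjusted p = 0.702). The transcript-level table divides the Fosb counts over 3 records. The record NM_008036 held 75.3% to 89.4% of them in the TL+L samples, 64.8% in TSeL, 82.5% in TSeL+L and 52.4% to 78.8% in PBS. The record NM_001347586 held 10.6% to 18.6% in TL+L, 33.8% in TSeL, 17.5% in TSeL+L and 21.2% to 44.7% in PBS. TL+L and PBS do not overlap for this second share, which rests in TL+L replicate 1 on 18.2 estimated counts and was not tested.

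Fosl1 encodes Fra-1, a Fos relative without the strong activation domain that follows the first wave and is known from wound edges and migrating epithelial cells. It had 2.12, 0.683 and 3.57 CPM in TL+L, 5.94 CPM in TSeL, 1.64 CPM in TSeL+L, and 11.4, 15.5 and 10.1 CPM in PBS. Every TL+L sample lay below every PBS sample, and the TSeL and TSeL+L samples also lay below all 3 PBS samples. The means were 2.12 ± 1.44 CPM in TL+L, against 12.3 ± 2.82 CPM in PBS (SD, n = 3 each), and the log2 fold change was -2.53 with a standard error of 0.54 (edgeR adjusted p = 0.0371). The TL+L values rest on 40, 12 and 64 counts, so their counting error is not small.

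Fosl2 encodes Fra-2, the Fos relative with the most steady expression in epithelia and connective tissue. It had 264.8, 247.2 and 304.0 CPM in TL+L, 299.2 CPM in TSeL, 247.0 CPM in TSeL+L, and 493.7, 452.6 and 563.4 CPM in PBS. All samples outside PBS lay below the 3 PBS samples with no overlap. The means were 272.0 ± 29.1 CPM in TL+L, against 503.2 ± 56.0 CPM in PBS (SD, n = 3 each), and the log2 fold change was -0.89 with a standard error of 0.15 (edgeR adjusted p = 0.0268).

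Fosl1 and Fosl2 were thus the 2 of 10 genes called at an adjusted p under 0.05 in TL+L against PBS, where 12.8% of all genes tested were called and 7.17% were called lower. They were also the 2 of 10 whose TL+L and PBS samples did not overlap, a condition met by 42.4% of all genes tested. Both calls were lost on leaving out any TL+L or PBS library except TL+L replicate 2. Without PBS replicate 1, 2 or 3, or without TL+L replicate 1 or 3, the edgeR adjusted p lay between 0.0762 and 0.119 for Fosl1 and between 0.0787 and 0.0996 for Fosl2. Without TL+L replicate 2 it was 0.00499 for Fosl1 and 0.00839 for Fosl2. The log2 fold changes stayed between -3.11 and -2.11 for Fosl1 and between -0.96 and -0.79 for Fosl2 across these 6 fits.

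Cell type markers also differed between TL+L and PBS. Over all genes tested, 7.17% were called lower and 896 of 15791 were called higher. Counts such as 1 of 10 or 1 of 11 are near these shares. Of 12 neutrophil markers, 9 were called lower in TL+L, with a median log2 fold change of -3.22, none was at 0 in any sample, and their summed share of counts was 0.128% to 0.532% in TL+L, 0.336% in TSeL, 0.187% in TSeL+L and 0.522% to 0.809% in PBS, ranges that touch between TL+L and PBS. Of 10 blood endothelium markers, 5 were called lower, with shares of 0.0405% to 0.0712% in TL+L and 0.0878% to 0.122% in PBS. Of the fibroblast markers 2 of 10 and of the macrophage and monocyte markers 1 of 11 were called lower. All 10 and all 11 of these had negative log2 fold changes, with medians of -1.04 and -0.754. Of 10 keratinocyte markers, 1 was called higher, none was at 0, and their share was 1.38% to 1.72% in TL+L and 0.840% to 1.25% in PBS. Adipocyte markers had 2 of 10 called higher. Neither the 12 hair shaft markers nor the 12 skeletal muscle markers had a call. All 12 hair shaft markers were nonetheless higher in TL+L, with a median log2 fold change of 5.37 and an unadjusted edgeR p under 0.05 each. The skeletal muscle markers had a median of -0.5, and 0 of them had an unadjusted edgeR p under 0.05. The part of these cell types in the Fosl1 and Fosl2 results was not tested.

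**Figure D2:**
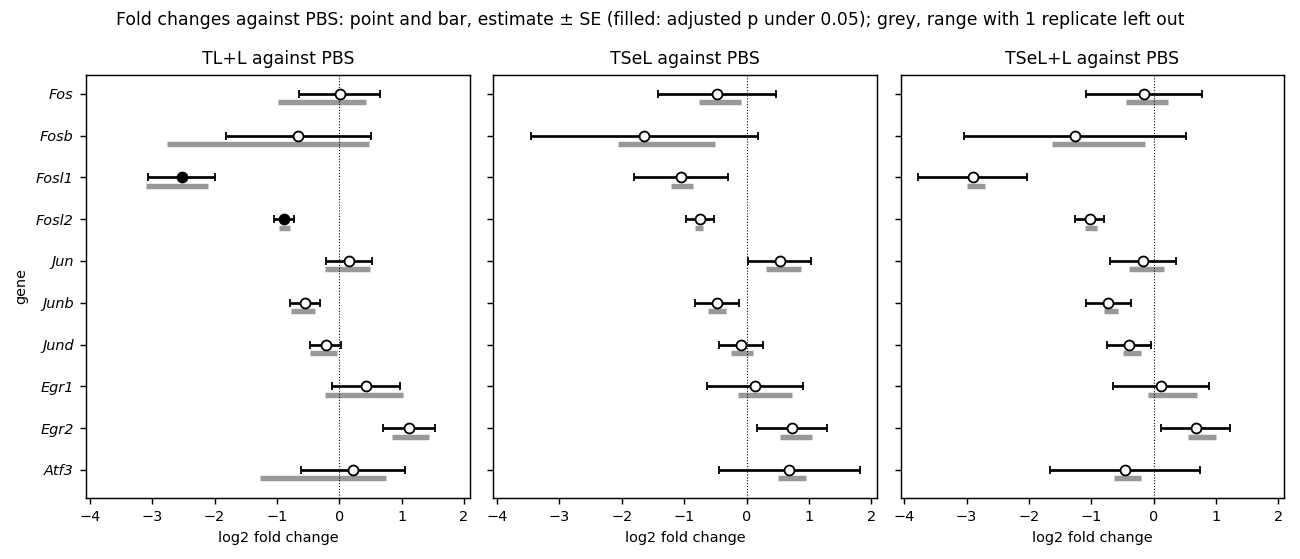
Log2 fold change of each gene in TL+L, TSeL and TSeL+L against PBS, as estimate and standard error, filled where the edgeR adjusted p is under 0.05, with a grey bar for the range when 1 TL+L or PBS replicate is left out. Fosl1 at -2.53 and Fosl2 at -0.89 in TL+L are the filled points, and the grey bars of Fos, Fosb, Jun, Egr1 and Atf3 in that panel cross 0.

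Of the Jun family, the partners that Fos proteins need, Jun is the strongest activator and is raised by JNK signalling. Jun had 122.1, 119.4 and 235.5 CPM in TL+L, 205.9 CPM in TSeL, 126.1 CPM in TSeL+L, and 202.1, 95.1 and 130.3 CPM in PBS. TL+L replicate 3, TSeL and PBS replicate 1 stood together above the other 5 samples. The log2 fold change of TL+L against PBS was 0.16 with a standard error of 0.37 (edgeR adjusted p = 0.778).

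Junb, which restrains Jun in keratinocytes and whose loss from mouse epidermis leads to skin inflammation, had 252.7, 207.9 and 358.0 CPM in TL+L, 286.2 CPM in TSeL, 241.0 CPM in TSeL+L, and 475.7, 379.9 and 340.2 CPM in PBS. TL+L replicate 3 reached into the PBS range and the other 2 TL+L samples did not. The log2 fold change was -0.55 with a standard error of 0.24 (edgeR adjusted p = 0.153). Jund, the family member with the least dependence on stimulation, had 101.0, 91.0 and 153.8 CPM in TL+L, 126.5 CPM in TSeL, 102.0 CPM in TSeL+L, and 126.5, 166.6 and 109.6 CPM in PBS. Its groups overlapped, and the log2 fold change of TL+L against PBS was -0.22 with a standard error of 0.25 (edgeR adjusted p = 0.542). The transcript-level table divides the Jund counts evenly over 4 records, so it holds no separate isoform measurement for Jund.

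Levels of different genes can be set side by side only per transcript length, as TPM. The TSeL and TSeL+L values on this scale are the authors' own averages. Junb held 62.1% to 66.7% of the Jun family sum in TL+L, 60.5% in TSeL, 65.2% in TSeL+L and 71.6% to 72.1% in PBS. Its share was thus below the PBS range in every other sample. The Fos family sum was 146.8, 216.4 and 551.4 TPM in TL+L replicates 1 to 3, 207.8 TPM in TSeL, 279.2 TPM in TSeL+L, and 532.7, 260.7 and 388.1 TPM in PBS. Fosl2 made up 49.1%, 34.0% and 15.2% of it in TL+L replicates 1 to 3, 34.3% in TSeL, 26.1% in TSeL+L, and 25.1%, 45.0% and 42.3% in PBS. The samples with the largest sums, TL+L replicate 3 and PBS replicate 1, had the smallest Fosl2 shares of their groups and the largest Fosb shares, at 16.6% and 22.0%. The ratio of the Fos to the Jun family sum ran over 0.398, 0.617 and 0.965 in TL+L, was 0.516 in TSeL and 0.712 in TSeL+L, and ran over 0.828, 0.528 and 0.777 in PBS. These shares and ratios are descriptions and were not tested.

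**Figure D3:**
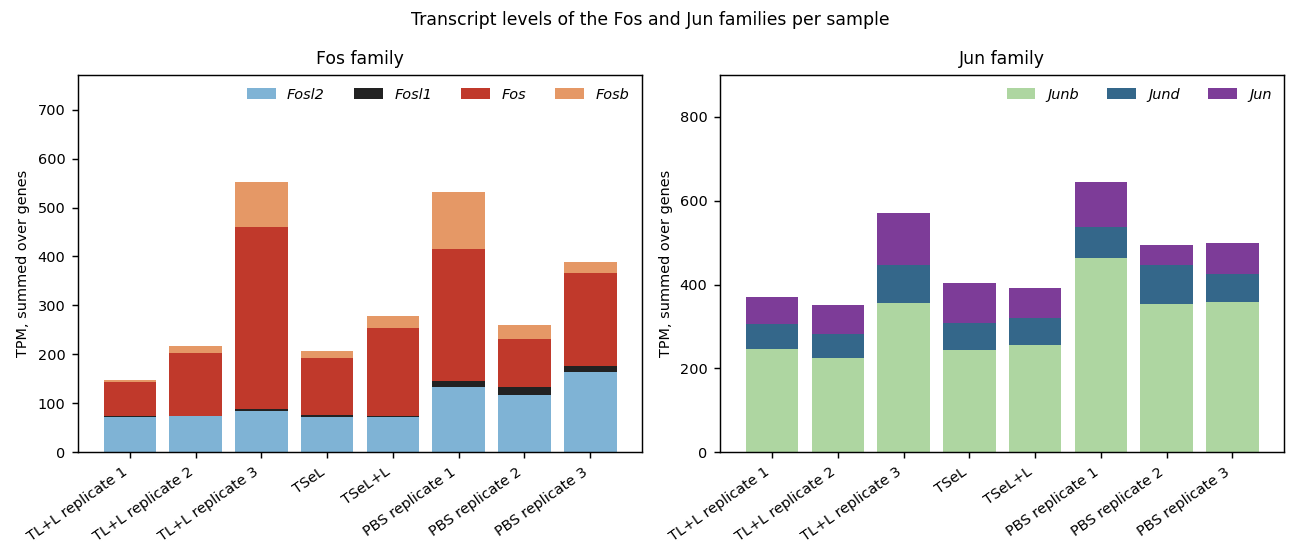
Transcript levels in TPM, stacked over the 4 Fos family genes at left and the 3 Jun family genes at right, 1 bar per sample, with the PBS samples at the right of each panel. The Fos family bars run between 146.8 and 551.4 TPM within TL+L alone, while the pale green Junb part is the largest piece of every Jun family bar.

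Atf3, a CREB family factor induced by stress that pairs with Jun proteins and often represses inflammatory genes, had 8.90, 26.4 and 114.0 CPM in TL+L, 68.7 CPM in TSeL, 31.1 CPM in TSeL+L, and 57.0, 31.3 and 39.97 CPM in PBS. The 3 PBS samples lay between the second and the highest TL+L sample, and the highest TL+L value was 12.8 times the lowest, against 1.82 times in PBS. The log2 fold change was 0.22 with a standard error of 0.83 (edgeR adjusted p = 0.865).

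Egr1, the factor induced most broadly by growth factors and mechanical injury, had 200.7, 166.9 and 507.3 CPM in TL+L, 238.1 CPM in TSeL, 233.8 CPM in TSeL+L, and 360.4, 149.1 and 139.2 CPM in PBS. TL+L replicate 3 and PBS replicate 1 were the highest of the 8 samples, and the groups overlapped. The log2 fold change of TL+L against PBS was 0.43 with a standard error of 0.55 (edgeR adjusted p = 0.589).

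Egr2, known from Schwann cell myelination, from lymphocytes and from the hair follicle, had the largest positive log2 fold change of the 10. It had 59.9, 26.1 and 70.9 CPM in TL+L, 39.9 CPM in TSeL, 38.4 CPM in TSeL+L, and 33.9, 19.7 and 18.8 CPM in PBS. TL+L replicate 2 fell inside the PBS range, and the other 4 samples outside PBS lay above it. The means were 52.3 ± 23.4 CPM in TL+L, against 24.1 ± 8.46 CPM in PBS (SD, n = 3 each), a log2 fold change of 1.12 with a standard error of 0.41 that missed the threshold (edgeR adjusted p = 0.107). It passed with DESeq2 (adjusted p = 0.0342), which called 4064 of all genes, against 2029 in the main fit. In edgeR it passed without TL+L replicate 2 (adjusted p = 0.011), the TL+L sample inside the PBS range, where 6299 of all genes were called. Hair shaft markers, whose keratins are made in the follicle, took up 1.93%, 0.502% and 3.43% of counts in TL+L replicates 1 to 3, 0.0112% in TSeL, 1.78% in TSeL+L, and 0.0176%, 0.00178% and 0.174% in PBS. Within TL+L they stood in the same order as Egr2. Hair shaft markers were low in TSeL, where Egr2 was above all 3 PBS samples. Their part in the Egr2 values was not tested.

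Over the 10 genes the median log2 fold change of TL+L against PBS was -0.11, against 0.01 over all genes tested, with 5 positive and 5 negative values. Most of the 10 genes spread more within groups than the median gene. The standard deviation of log2 CPM among the 3 TL+L samples was 2.28 for Fosb, 1.84 for Atf3, 1.23 for Fos, 1.12 for Fosl1, 0.86 for Egr1, 0.77 for Egr2 and 0.56 for Jun, and the median over the 10 genes was 0.815, against 0.266 over all genes tested. In PBS it was 1.31 for Fosb, 0.77 for Egr1, 0.69 for Fos, 0.55 for Jun, 0.47 for Egr2, 0.43 for Atf3 and 0.32 for Fosl1, with medians of 0.452 over the 10 genes and 0.191 over all genes. In each of the 2 groups 9 of the 10 genes exceeded the all-gene median, and Fosl2 was the exception in both, at 0.15 in TL+L and 0.16 in PBS. The top sample of a group was often the same across the genes, while the order below it was not. TL+L replicate 3 was highest of its group for all 10, while PBS replicate 1 was highest of its group for 7 of the 10, against 28.8% of all genes tested.

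**Figure D4:**
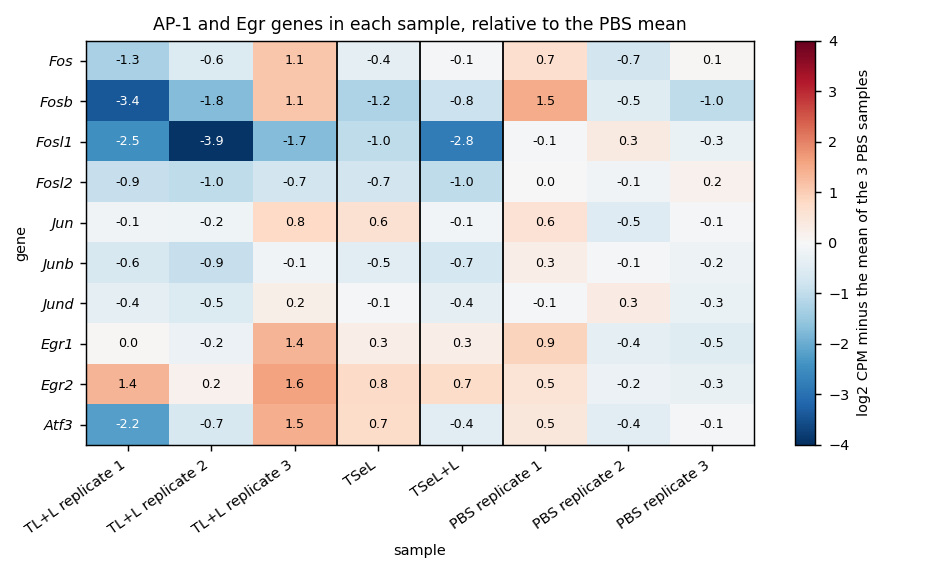
Log2 CPM of each gene in each sample minus the mean of the 3 PBS samples, with red above and blue below that mean, TL+L at left and PBS at right. The rows of Fosl1 and Fosl2 are blue in every column outside PBS, and the TL+L replicate 3 column is above the PBS mean for all genes but Fosl1, Fosl2 and Junb.

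These genes also respond to how a tissue is handled, and the labels say that skins were taken off and frozen without giving the time between. Over 2 whole lists of other rapid-response genes, the top sample was shared in part. Of 23 other immediate early transcription factors, TL+L replicate 3 was highest of its group for 10, as was TL+L replicate 1, and PBS replicate 1 was highest of its group for 9, against 11 for PBS replicate 2. Of 35 immediate early effectors and feedback genes, TL+L replicate 3 was highest for 21 and PBS replicate 1 for 18. The next 3 genes are examples and no support for a shared order. Ier2, an immediate early gene of a nuclear protein that is also named below for its likeness to Egr1, had 71.2, 56.2 and 107.5 CPM in TL+L, 63.7 CPM in TSeL, 77.6 CPM in TSeL+L, and 90.2, 70.1 and 57.9 CPM in PBS. Nr4a1, an orphan nuclear receptor named here after its values were seen, had 25.8, 55.0 and 120.7 CPM in TL+L, 264.7 CPM in TSeL, 42.5 CPM in TSeL+L, and 261.8, 134.1 and 99.8 CPM in PBS. For both genes TL+L replicate 3 and PBS replicate 1 were the highest of their groups. Dusp1, a phosphatase that switches off MAP kinases and was likewise named after its values were seen, had 75.3, 104.8 and 192.2 CPM in TL+L and 399.4, 286.2 and 267.2 CPM in PBS, without overlap (edgeR adjusted p = 0.0552). Heat shock genes are the other common sign of handling. Of 15 such genes, inducible and constitutive, TL+L replicate 3 was highest of its group for 3 and PBS replicate 1 for 2. Hspa1a and Hspa1b were named after their values were seen and are no support for a shared order. Hspa1a, the inducible Hsp70, had 34.8, 29.0 and 42.4 CPM in TL+L, 47.7 CPM in TSeL, 67.5 CPM in TSeL+L, and 65.8, 46.5 and 23.9 CPM in PBS. It was highest in TL+L replicate 3 and in PBS replicate 1 of their groups. Hspa1b, its near-identical copy, with which it can share reads, had 127.0, 65.5 and 99.7 CPM in TL+L, 68.0 CPM in TSeL, 111.3 CPM in TSeL+L, and 101.5, 63.6 and 59.3 CPM in PBS. By mean CPM, which is not corrected for transcript length, the highest of the heat shock genes were Hspa8 and Hsp90ab1. Hspa8, the constitutive Hsp70, had 1228 ± 27.0 CPM in TL+L, against 1457 ± 158 CPM in PBS (SD, n = 3 each). Hsp90ab1 had 1453 ± 203 CPM in TL+L, against 1277 ± 106 CPM in PBS (SD, n = 3 each). Of the 15, 0 were called in either direction in TL+L against PBS in edgeR, where 4 had an unadjusted p under 0.05 and the median log2 fold change was 0.03, and DESeq2 called 2 higher and 1 lower. Whether handling had a part in the values of the AP-1 and Egr genes was not tested.

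Because Fos, Fosb, Fosl2 and Egr2 stand for the different patterns above, the 250 bases before their transcription starts are shown, from RefSeq on build GRCm38.p6, with capitals for letters that match a searched motif. RefSeq windows are reported for 8 of the 10 genes, 12 windows in all. No window was found for Fosl1, and that of Egr1 was left out and is not reported here. The motifs were the CArG box of serum response factor, the CREB sites TGACGTCA and TGACGT, of which the second lies within the first, the AP-1 site TGACTCA, the TATA box TATAAA and the Egr site GCGNGGGCG, each on both strands, in windows from 250 bases before to 50 bases after the start.
Fos, chr12:85473640-85473889, plus strand: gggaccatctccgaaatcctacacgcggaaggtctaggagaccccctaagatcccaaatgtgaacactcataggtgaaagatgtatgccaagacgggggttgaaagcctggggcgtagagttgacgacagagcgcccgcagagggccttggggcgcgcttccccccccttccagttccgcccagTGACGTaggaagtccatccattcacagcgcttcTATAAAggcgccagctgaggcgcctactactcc
Fosb, chr7:19310046-19310295, minus strand: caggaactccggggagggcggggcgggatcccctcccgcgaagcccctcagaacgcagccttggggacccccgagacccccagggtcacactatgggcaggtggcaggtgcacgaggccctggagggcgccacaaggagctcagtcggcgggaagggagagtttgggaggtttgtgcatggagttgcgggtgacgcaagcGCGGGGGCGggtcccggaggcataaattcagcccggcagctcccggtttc
Fosl2, chr5:32136222-32136471, plus strand: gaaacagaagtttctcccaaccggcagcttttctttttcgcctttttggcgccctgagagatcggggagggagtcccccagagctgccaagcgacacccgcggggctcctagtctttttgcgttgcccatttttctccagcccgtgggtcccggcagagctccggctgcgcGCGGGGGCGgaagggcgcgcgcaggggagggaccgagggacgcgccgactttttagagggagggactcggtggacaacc
Egr2, chr10:67537619-67537868, plus strand: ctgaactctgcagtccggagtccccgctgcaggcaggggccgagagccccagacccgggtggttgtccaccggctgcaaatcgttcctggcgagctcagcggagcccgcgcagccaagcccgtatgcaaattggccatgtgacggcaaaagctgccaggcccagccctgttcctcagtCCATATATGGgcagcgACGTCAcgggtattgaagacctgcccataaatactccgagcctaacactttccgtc

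Counting the base before the start as -1, the Fos window held TGACGT at -66 to -61 and TATAAA at -33 to -28. The Egr2 window shown held a CArG box at -72 to -63 and TGACGT, read on the opposite strand, at -56 to -51. It is 1 of 5 Egr2 windows, of which 3 overlap and hold this same pair of matches, 1 holds a different CArG box and no TGACGT, and 1 holds no searched motif. Fosb and Fosl2 each held the Egr site, at -50 to -42 in Fosb and at -79 to -71 in Fosl2. The Atf3 window held TGACGT on the opposite strand at -8 to -3, and none of the 12 windows held TGACGTCA or TGACTCA. Of 32851 mouse promoter windows of the same length, 1.63% held the CArG box, 7.51% TGACGT, 13.6% TATAAA and 5.55% the Egr site, shares per window that a gene with several windows has several chances to meet. A match describes letters and not bound factors. The Fosb and Fosl2 windows both hold the Egr site, and the RNA of these 2 genes differed in its spread. Whether the site has a part in their RNA levels was not tested.

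In the single TSeL sample none of the 10 was called against PBS in edgeR, where 0 of all genes tested were called and 3112 had an unadjusted p under 0.05. DESeq2 called 1 of the 10 and 1354 of all genes. The largest difference by its error was that of Fosl2, with a log2 fold change of -0.75 and a standard error of 0.23 (edgeR adjusted p = 0.164), which was the 1 that DESeq2 called (adjusted p = 0.0243). The TSeL value was outside the PBS range for 7 of the 10, against 70.9% of all genes tested. Fosb, Fosl1, Fosl2 and Junb were below PBS, and Jun, Egr2 and Atf3 were above it. Skeletal muscle markers took up 11.1% of counts in TSeL, against 1.35% to 3.70% in PBS, and their part in these values was not tested.

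In the single TSeL+L sample Fosl1 was 7.48-fold lower than in PBS, with a log2 fold change of -2.90 and a standard error of 0.88 (edgeR adjusted p = 0.161), and Fosl2 had a log2 fold change of -1.03 with a standard error of 0.23 (edgeR adjusted p = 0.112). Neither passed, and none of the 10 was called, where 2 of all genes tested were, 0.0127%. Both passed with DESeq2, at adjusted p = 0.00589 for Fosl1 and 0.0013 for Fosl2, and in edgeR without TL+L replicate 2 or with only the TSeL+L and PBS samples in the fit. In each of these settings many more of all genes passed as well, so passing there is not particular to Fosl1 and Fosl2. The TSeL+L value was outside the PBS range for 6 of the 10, against 72.3% of all genes tested, with Fosl1, Fosl2, Junb, Jund and Atf3 below and Egr2 above. The comparisons of TL+L, TSeL and TSeL+L with PBS share the same PBS samples, so their likeness in Fosl1 and Fosl2 is not independent evidence.

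Between TSeL+L and TL+L no gene of the 10 was called, and 0 of all genes tested were (edgeR, 53 with an unadjusted p under 0.05, and DESeq2 called 1). All 10 log2 fold changes were negative, between -0.68 for Atf3 and -0.14 for Fosl2. Without TL+L replicate 3, those of 8 of the 10 were positive, with Fosl2 and Egr2 the exceptions. TSeL+L was outside the TL+L range for 1 of the 10, Fosl2, against 19.8% of all genes tested. Between TSeL+L and TSeL, 1 sample each, none of the 10 and 0 of all genes were called by edgeR, against 1912 genes with an unadjusted p under 0.05 and 360 called by DESeq2. The widest gaps were in Fosl1, with 1.64 CPM in TSeL+L and 5.94 CPM in TSeL, and in Atf3, with 31.1 CPM in TSeL+L and 68.7 CPM in TSeL.

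In lists of genes around AP-1 and Egr, most genes were not called in TL+L against PBS on the edgeR test at an adjusted p under 0.05, except among the AP-1 or Egr targets and the few other Egr and Nab genes. The counts called lower stand against 7.17% called lower over all genes tested, and those called higher against 896 of 15791 genes. Of 19 other AP-1, Maf and Batf genes, 0 were called higher and 3 lower, with a median log2 fold change of -0.24. Jdp2, which pairs with Jun and represses AP-1 sites, had 13.5 ± 3.32 CPM in TL+L, against 51.6 ± 6.24 CPM in PBS (SD, n = 3 each), 3.82-fold lower (edgeR adjusted p = 0.0111). Crem, a CREB relative with repressor forms, was 3.21-fold lower, and Maff, a small Maf protein without an activation domain, 1.77-fold lower. Maff lost its call in 7 of 19 alternatives, Crem in 5 and Jdp2 in 3.

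Of the other Egr genes and Nab corepressors, 4 of 5 could be tested, with 1 called higher and 2 lower and a median log2 fold change of 0.12. Egr3, the close relative of Egr2, had 152.8, 80.8 and 165.2 CPM in TL+L, 62.4 CPM in TSeL, 136.5 CPM in TSeL+L, and 57.1, 47.0 and 39.4 CPM in PBS. It was higher in every TL+L sample than in any PBS sample, 2.78-fold on average (log2 fold change 1.47, SE 0.29, edgeR adjusted p = 0.0324), and it lost the call in 6 of 19 alternatives. Within TL+L it stood in the same sample order as Egr2 and the hair shaft markers. For both Egr3 and the hair shaft markers, TSeL+L lay within the TL+L range and TSeL lay below every TL+L sample. Against PBS the 2 differed in TSeL, where Egr3 was above every PBS sample and the hair shaft share was inside the PBS range. The part of the hair shaft in the Egr3 values was not tested. Nab1, a corepressor that binds Egr proteins, was 1.33-fold lower (edgeR adjusted p = 0.0425). Wt1, a zinc finger factor with an Egr-like site, was called lower on 2, 5 and 1 counts in TL+L and 28, 38 and 15 counts in PBS.

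Of 23 other immediate early transcription factors, 0 were called higher and 7 lower, with a median log2 fold change of -0.73. Cebpd, an acute-phase factor, had 32.3 ± 1.27 CPM in TL+L, against 86.1 ± 1.30 CPM in PBS (SD, n = 3 each), 2.66-fold lower (edgeR adjusted p = 0.00535), and it kept its call in all 19 alternatives. TSeL had 86.2 CPM of Cebpd and TSeL+L 38.9 CPM. Snai1, a repressor of epithelial adhesion genes, was 4.10-fold lower and Nr4a3, an orphan nuclear receptor, 3.83-fold lower. Csrnp1, a nuclear factor induced by growth signals, was 2.68-fold lower.

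Of 35 immediate early effectors and feedback genes, 0 were called higher and 9 lower, with a median of -0.54. Socs3, which ends cytokine signalling through STAT3, had 111.8 ± 0.879 CPM in TL+L, against 338.5 ± 18.1 CPM in PBS (SD, n = 3 each), 3.03-fold lower (edgeR adjusted p = 0.00535). Tnfaip3, a brake on NF-kappaB, was 3.21-fold lower, Ptgs2, the inducible prostaglandin synthase, 5.44-fold lower, and Mcl1, a short-lived survival protein, 2.40-fold lower. Of 23 upstream MAP kinase and serum response factor genes, 0 were called higher and 2 lower, a share near that of all genes, with a median of -0.10. The 2 were Elk3, a ternary complex factor, 2.31-fold lower, and Mrtfb, a coactivator of serum response factor, 1.58-fold lower.

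The 27 genes listed as targets of AP-1 or Egr had 2 called higher, a share near that of all genes, and 14 lower. Their median was -0.80, against 0.01 over all genes tested. Plaur, the urokinase receptor, had 19.2 ± 2.20 CPM in TL+L, against 127.2 ± 22.4 CPM in PBS (SD, n = 3 each), 6.64-fold lower (edgeR adjusted p = 0.00535). Timp1, an inhibitor of metalloproteinases, was 4.86-fold lower, Il1b, the inflammatory cytokine, 4.74-fold lower, and Mmp9, a gelatinase, 3.67-fold lower. The 2 called higher were Ccnd1, which drives entry into the cell cycle, with a log2 fold change of 0.87, and Ivl, an envelope protein of differentiated keratinocytes, with 1.88, both named after their values were seen. Many of these targets are also made by neutrophils, of whose markers 9 of 12 were called lower, and by macrophages, of whose markers 1 of 11 was. All 11 macrophage and monocyte markers had negative log2 fold changes, with a median of -0.754. The part of these cells was not tested.

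Of the other genes named from these lists, Nab1 and Mrtfb lost their call in 7 of 19 alternatives, scaling by library totals among them. Elk3 lost it in 5, Csrnp1, Ptgs2 and Mcl1 in 4, and Snai1 and Mmp9 in 3. Nr4a3, Timp1 and Il1b lost it in 2, while Socs3, Tnfaip3 and Plaur lost it in 0. Wt1 lost it in 5 of the 18 alternatives in which it was tested. These list counts depended on single libraries. With 1 TL+L or PBS replicate left out, the targets called lower numbered 1 to 15, the effectors 2 to 13, the other transcription factors 1 to 10 and the other AP-1 genes 0 to 5, and each was at its highest without TL+L replicate 2. Without that replicate, 6299 of all genes tested were called, against 2029 with all samples and 16 to 183 when a different library was left out. In edgeR no gene of the 7 lists was called in TSeL against PBS, TSeL+L against PBS, TSeL+L against TL+L or TSeL+L against TSeL.

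Among 12602 genes outside the 10 with a mean of at least 5 CPM, those whose log2 CPM was most like a gene's over the 8 samples were found by Pearson's r, as a description without a test. For Fos they included Dnmbp (r = 0.882, Spearman's rho 0.905), Lrp6, Asap2 and Apc. Without the 2 samples farthest from the median of Fos, r for Dnmbp was 0.882 and r for Apc was 0.708. For Egr1 they included Eps15 (r = 0.904, rho 0.881), Ier2, Acvr2a and Srpk2. Without the 2 farthest samples r was 0.925 for Eps15, 0.523 for Ier2 and 0.172 for Srpk2, so the likeness of Ier2 and Srpk2 rests on the extreme samples. For Atf3 they included Trak2 (r = 0.958, rho 1.00), Mbtps2, Galnt15 and Cited2, and without the 2 farthest samples r was 0.918 for Trak2 and 0.187 for Galnt15, whose likeness rests on those samples. Trak2 itself ran only over 91.2, 97.9 and 115.6 CPM in TL+L, 115.0 CPM in TSeL, 101.7 CPM in TSeL+L, and 109.3, 106.4 and 107.2 CPM in PBS, a far narrower range than that of Atf3. Ier2 is the one gene among these names that also stands on a list of immediate early genes above.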

How the data were processed

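RNA sequencing of 12 mouse skin libraries was analysed. The labels name a TruSeq kit with oligo-dT selection, and Bowtie2 and RSEM are listed, with no version, in the submitters' processing notes. Neither genome build nor annotation is stated in the sources used. The authors deposited expected counts and TPM per gene and per transcript. As deposited, 88.7% of the expected counts were whole, and all were rounded here to whole counts. Taking the columns headed TS for TSeL and those headed TSL for TSeL+L is an interpretation, and the 3 near-identical columns of each were averaged into 1 sample. TPM of these groups are the authors' deposited averages.

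Genes were filtered with edgeR's filterByExpr, scaled by TMM and tested in 1 quasi-likelihood fit over the 8 samples (edgeR 4.0.16, R 4.3.3, 4 residual degrees of freedom, common biological coefficient of variation 0.278), with Benjamini-Hochberg adjustment over 15791 genes and a threshold of 0.05. CPM are rounded counts relative to the TMM-scaled library size. Log2 CPM used a prior count of 2. Standard errors of log2 fold changes were derived from the test, as the absolute log2 fold change over the square root of its F statistic. Depth was 16630581 to 17318157 counts per column, and intervals from counts cover counting error only. The procedure was tested on simulated data.

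Alternatives were DESeq2 1.42.0, limma-voom (limma 3.58.1), other scalings and filters, other treatments of the near-identical columns, each replicate left out and the replicate number as a block. The genes and lists were chosen with earlier results of these data known. All 10 genes are named. From each list, up to 4 called genes with the smallest adjusted p were named, or the 2 with the highest mean CPM where none was called. Nr4a1, Dusp1, Hspa1a, Hspa1b, Ccnd1 and Ivl were named apart from this rule, after their values were seen. For Fos, Egr1 and Atf3 genes were named from the 5 most alike in log2 CPM, and some are not reported here.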

Additional observations from a re-analysis of the deposited data

How the results depend on the processing

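In TL+L against PBS, DESeq2 called 4064 of all genes, the 12 columns taken as separate samples gave 4 of the 10 genes and 7164 of all genes, and the replicate block gave 0 of the 10 and 1066 of all genes (edgeR adjusted p = 0.0697 for Fosl1 and 0.0512 for Fosl2). Same-numbered TL+L and PBS samples had correlations of -0.175, 0.130 and 0.212 between their deviations from the group means. Differently numbered samples had correlations of -0.231 to 0.187. With 3 samples per group these values cannot decide whether the numbers pair the samples. With 1 replicate left out, 0 to 3 of the 10 and 16 to 6299 of all genes were called in TL+L against PBS, 0 to 1315 of all genes in TSeL against PBS, and 0 to 2 of the 10 and 0 to 2163 of all genes in TSeL+L against PBS. In TSeL against PBS, DESeq2 called 1 of the 10 and 1354 of all genes, the 12 columns 3 and 6521, and the 2 compared groups alone 415 of all genes. In TSeL+L against PBS, DESeq2 called 2 and 1515, the 12 columns 3 and 7093, the 2 compared groups alone 2 and 1802, limma-voom 4 of all genes, and the second single columns 0. In TSeL+L against TL+L, DESeq2 called 1 and the 12 columns 3 of all genes. In TSeL+L against TSeL, DESeq2 called 360 of all genes, and the 12 columns 1 of the 10 and 6618 of all genes, while a fit of the 2 samples alone has no residual degrees of freedom and was not run. Treating near-identical columns as separate samples counts 1 sample 3 times. Scaling by library totals shifted all genes, to a median log2 fold change of 0.15 in TL+L against PBS, -0.18 in TSeL against PBS, 0.16 in TSeL+L against PBS and 0.27 in TSeL+L against TSeL, and gave 1522 higher and 902 lower calls in TL+L against PBS, against 896 higher and 1133 lower with TMM. For the other counts the cause was not tested.

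Log2 fold changes that changed sign all belonged to uncalled genes. In TL+L against PBS they were -0.25 for Fos and -0.48 for Atf3 with limma-voom, and -0.20 for Fos and -0.40 for Atf3 with the replicate block. With library totals they were -0.044 for Egr1 in TSeL against PBS, 0.0050 for Fos in TSeL+L against PBS, and 0.067 for Fosl2, 0.096 for Junb, 0.034 for Jund, 0.32 for Egr1 and 0.29 for Egr2 in TSeL+L against TSeL. In TSeL+L against TL+L, limma-voom gave 0.20 for Fos, 0.52 for Fosb and 0.067 for Atf3. In TSeL+L against TSeL, Egr1 had 0.0052 with DESeq2 or its size factors, 0.035 with TMM without hair and muscle genes, 0.034 with the stricter filter, 0.034 with 12 columns and 0.023 with the second single columns, and Egr2 had 0.0064, 0.0049, 0.00585 and 0.024 under the last 4 of these. With 1 replicate left out, the log2 fold changes of TL+L against PBS ran between -0.98 and 0.42 for Fos, -2.77 and 0.47 for Fosb, -0.23 and 0.50 for Jun, -0.22 and 1.02 for Egr1, and -1.27 and 0.74 for Atf3. Those of TSeL against PBS ran between -0.24 and 0.10 for Jund and -0.13 and 0.72 for Egr1. Those of TSeL+L against PBS ran between -0.44 and 0.24 for Fos, -0.40 and 0.16 for Jun, and -0.10 and 0.70 for Egr1. Those of TSeL+L against TL+L ran between -0.55 and 0.85 for Fos, -1.14 and 1.53 for Fosb, -0.79 and 0.23 for Fosl1, -0.50 and 0.080 for Jun, -0.34 and 0.082 for Junb, -0.32 and 0.11 for Jund, -0.60 and 0.36 for Egr1, and -1.18 and 0.84 for Atf3. Those of TSeL+L against TSeL ran between -0.027 and 0.033 for Egr1 and between -0.056 and 0.0042 for Egr2. The cause was not tested.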
